A study of Drosophila melanogaster with 5 samples.

Results

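Hemocytes of larvae from a Su(H) stock were compared with hemocytes of larvae from an E(spl) stock, array against array, on an Affymetrix expression array of Drosophila melanogaster. The difference was the log2 level on the Su(H) array minus the log2 level on the E(spl) array for each probe set, the group of probes that together report 1 transcript. Of 18952 probe sets, 183 manufacturer's controls were left out. A probe set was kept if its log2 level reached 4.5 on at least 1 of both arrays, which left 9707 of 18769. Of these, 8948 reached the level on both arrays, 458 on the Su(H) array alone and 301 on the E(spl) array alone.

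Hemocytes are the circulating blood cells of the fly. Most are plasmatocytes, which engulf particles and dying cells. Crystal cells carry prophenoloxidases for melanization, and lamellocytes are large flat cells that appear when larvae must encapsulate foreign bodies. In the Notch pathway, a ligand on a neighbouring cell triggers cleavage of the Notch receptor, and the freed intracellular part enters the nucleus. There it joins Su(H) (Suppressor of Hairless), the DNA-binding protein of the pathway, which without Notch holds target genes down together with Hairless and corepressors. The genes of the E(spl) (Enhancer of split) complex are classic targets and encode mostly basic helix-loop-helix repressors. In fly blood, Notch and Su(H) are known for crystal cell formation.

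The tested larvae carried the strain labelled Su(H)l(417) of stock BL417, given as a loss-of-function mutant. They were set against larvae of the strain labelled E(spl)rvl of stock BL199, also given as loss of function. The labels do not say which alleles these names stand for, nor whether the larvae carried them on both chromosomes. The series held 3 other arrays, a gain-of-function EGFR stock (BL1564), the P-element line spen(GE10359) and the control strain W1118, and they enter below only to show on which side a difference lies. Each array drew on the pooled hemocytes of 200 to 300 larvae in the third instar, whose 1.0 to 1.3 µg of total RNA was amplified before labelling. Each stock had 1 array, so no test was possible, no p-value or error between animals is given, and "higher" and "lower" describe these arrays. The spread of the difference between probe sets of the same gene, a technical measure, had a pooled SD of 0.47 log2 units over 352 genes with 829 probe sets. In bulk RNA, fewer cells of a type and less RNA per cell cannot be told apart.

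The blood cell identity of both arrays was read from plasmatocyte genes. Hml, a clotting protein made by hemocytes, stood at 14.36 on the Su(H) array and 14.29 on the E(spl) array. Eater, a phagocytosis receptor, stood at 13.83 in Su(H) and 13.94 in E(spl). Both arrays thus carried these markers near the top of the scale. Array medians were 4.51 in Su(H) and 4.46 in E(spl), and the highest Bacillus control probe sets, which mark the background, stood at 4.28 and 4.33 in the same order. The 3' over middle signal, averaged over actin, eIF-4a and GAPDH, was 2.59 log2 units in Su(H) and 2.14 in E(spl), against 1.57 to 1.90 on the other 3 arrays. It was higher in Su(H) at all 3 genes, so RNA quality moved with the comparison, and its part in the results was not tested. The Su(H) label could not be checked from the mutated gene, since the probe set of Su(H) is unnamed here. Those of E(spl)m8-HLH and E(spl)mgamma-HLH are unnamed as well. Other genes of the E(spl) complex were measured and are given below, but the labels do not say which of them is mutated.

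The arrays of the Su(H) and E(spl) stocks were alike at most probe sets. At 2-fold or more, 386 probe sets were higher in Su(H) (3.98% of those kept) and 278 were lower (2.86%), together 6.84%. The other 9043 (93.2%) differed by under 2-fold, and 78.3% lay within 0.5 log2 units. The median difference was -0.01 and the median size of a difference 0.24. At 4-fold, 104 were higher and 51 lower, and at 8-fold 31 were higher and 17 lower. The differences ran between -6.52 and 5.55. Higher probe sets made up 58.1% of those past 2-fold.

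**Figure D1:**
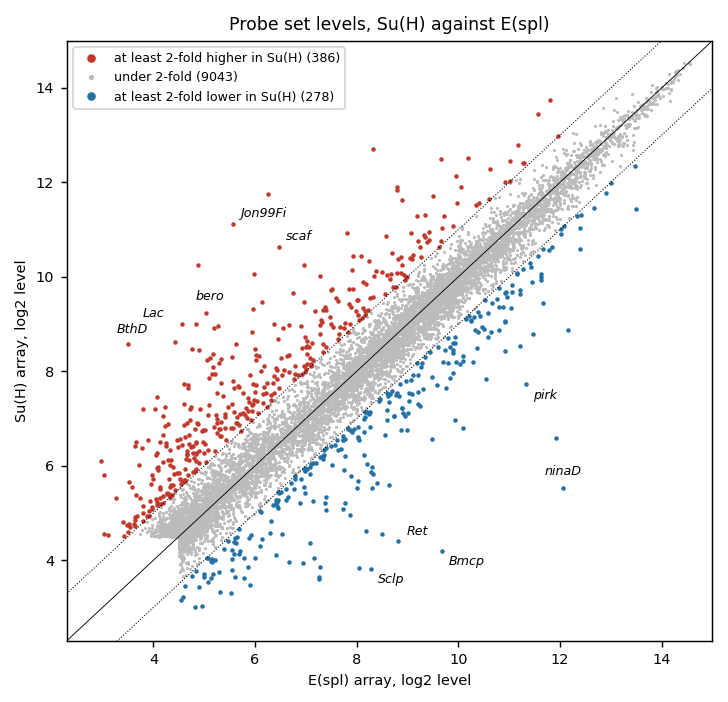
Log2 level of each of the 9707 probe sets kept, on the Su(H) array (vertical) against the E(spl) array (horizontal), with dotted lines at 2-fold. Most points follow the diagonal, while 386 lie above and 278 below the dotted lines, with ninaD farthest below and Jon99Fi farthest above.

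Under the same level rule, this pair had the lowest share of probe sets past 2-fold among the 10 pairs of arrays. Su(H) and EGFR followed with 11.4%, then E(spl) and EGFR with 13.0%. Su(H) and the control differed at 21.3% and E(spl) and the control at 21.1%. These pairs share arrays and are not independent. The share past 2-fold depended on the level, with 10.4% at mean levels of 6 to 8 against 1.61% at 12 or above.

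**Figure D2:**
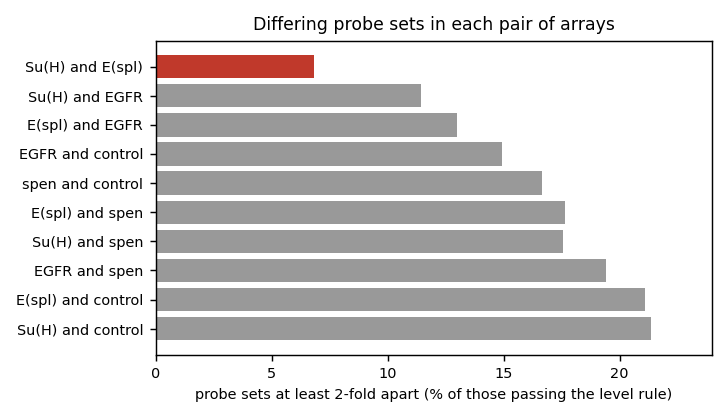
Share of probe sets at least 2-fold apart in each of the 10 pairs of arrays, in percent of those passing the level rule in that pair. Su(H) and E(spl) have the shortest bar, 6.84%, and Su(H) and the control the longest, 21.3%.

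The other 3 arrays show which side stood apart. Of the 386 probe sets higher in Su(H), 153 (39.6%) were on the Su(H) array at least 2-fold above the range of EGFR, spen and control while E(spl) was not. In 46 (11.9%), E(spl) was at least 2-fold below that range and Su(H) was not. Of the 278 lower in Su(H), 78 (28.1%) had E(spl) at least 2-fold above the range and 28 (10.1%) had Su(H) below it. In both directions, the array with the higher level was thus more often the one outside the range. A level near the Bacillus controls can hardly lie 2-fold below other arrays, so the background favours this outcome. Of the 386 and 278 probe sets, 301 and 223 reached 4.5 on both arrays, and the sides were not counted among these alone. Of all 386 higher and 278 lower probe sets, 181 and 164 had neither array so far outside, and 6 and 8 had both. Among the higher ones, the Su(H) level exceeded the median of the other 3 arrays by a median of 1.37, while E(spl) differed from it by a median of -0.10. Among the lower ones, Su(H) differed by a median of -0.34 and E(spl) by 1.03.

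By gene, each taken as the mean of its kept probe sets, 314 of 7891 named genes were higher in Su(H) (3.98%), 217 were lower (2.75%), together 6.73%, and 7360 differed by under 2-fold. Of the probe sets past 2-fold, 68 had no gene name and 20 had several. Where a gene had further probe sets, these all shared the sign of the differing one in 46 of 62 cases (74.2%). In 25 of the 62 (40.3%) all of them lay at least 0.5 off in the same direction.

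The 15 named genes farthest above E(spl) were led by Jon99Fi, a Jonah family serine protease gene, the family of digestive proteases of the midgut. It stood at 11.11 in Su(H) and 5.57 in E(spl), and at 3.06 in EGFR, 3.40 in spen and 4.66 in the control, a 46.7-fold difference that set Su(H) apart from all 4 other arrays. bero, which encodes a small membrane-anchored protein of the Ly6 type, stood at 9.23 in Su(H) and 5.04 in E(spl), 18.2-fold higher, with the other 3 arrays between 5.39 and 5.57. Again only the Su(H) array was high. Adgf-C, a gene of secreted adenosine deaminases that break down extracellular adenosine, stood at 8.48 in Su(H) and 4.76 in E(spl), with 4.89 to 6.71 elsewhere. Desi, a membrane protein gene, stood at 7.20 in Su(H) and at 3.79, below the Bacillus controls, in E(spl). It was at least 7.28-fold higher, and at 3.50 to 3.88 on the other arrays. CG6040, CG17633 and CG4607 also had only Su(H) high, with differences of 3.69, 3.56 and 3.35.

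For a further set among the 15, the E(spl) array was the low one. BthD, a selenoprotein gene, stood at 8.58 in Su(H) and 3.50 in E(spl), at least 19.0-fold higher, with 6.29 to 8.96 on the other 3 arrays. Lac, an immunoglobulin-type adhesion protein of septate junctions, stood at 9.00 in Su(H) and 4.57 in E(spl), and at 7.99 to 11.04 elsewhere. Cyp6a13, a cytochrome P450 gene, stood at 8.62 in Su(H) and 4.43 in E(spl), with 7.83 to 10.09 elsewhere. For these 3 genes Su(H) lay within the range of the other arrays, and E(spl) lay below it. The tetraspanin gene TM4SF (8.92 in Su(H), 5.18 in E(spl)), CG8858 (9.01 and 4.84) and CG14072 (at least 8.71-fold higher) also had E(spl) as the low array by over 2-fold.

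In scaf, which encodes a serine protease homologue without catalytic activity, the arrays stood at 10.63 in Su(H) and 6.47 in E(spl), and the other 3 between 8.42 and 9.29. It was the single gene of the 15 with Su(H) above and E(spl) below the others, each by over 2-fold. The probe set of be that passed 2-fold differed by 4.07, with 10.05 in Su(H) and 5.98 in E(spl), while its other probe set differed by 0.02, so the gene's probe sets disagreed.

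The 15 genes farthest below E(spl) were led by ninaD, a class B scavenger receptor gene known for carotenoid uptake. It stood at 5.54 in Su(H) and 12.06 in E(spl), 91.6-fold lower, and at 3.51 to 3.86 in EGFR, spen and control. Su(H) lay above these 3 arrays too, but far below E(spl). Ret, a receptor tyrosine kinase gene, stood at 4.42 in Su(H) and 8.81 in E(spl), with 4.09 to 4.42 elsewhere. Ugt37A3, a UDP-glycosyltransferase gene of detoxification, stood at 4.55 in Su(H) and 8.50 in E(spl), with 3.77 to 4.19 elsewhere. Ttc26, a gene of transport within cilia, was at 3.83 in Su(H) and 8.05 in E(spl), at least 13.6-fold lower, with 3.75 to 3.85 elsewhere. In these genes the E(spl) array was the high one, as it was in CG31321 (at least 8.06-fold lower in Su(H)), CG6125 (at least 6.34-fold lower), CG31219 (-3.04) and CG7763 (-2.97).

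In Bmcp, Sclp and Ir76a the Su(H) array alone was low. Bmcp encodes a carrier of the inner mitochondrial membrane, and 1 of its probe sets stood at 4.20 in Su(H) and 9.67 in E(spl), at least 42.1-fold lower, with 8.69 to 9.17 elsewhere. Its other probe set differed by -0.63, less than 2-fold. Sclp stood at 3.82 in Su(H) and 8.27 in E(spl), and was at least 16.0-fold lower, with 7.22 to 7.62 elsewhere. Ir76a, an ionotropic receptor gene, stood at 3.64 in Su(H) and 7.26 in E(spl), at least 7.89-fold lower, with 6.68 to 8.03 elsewhere. Idh3g, a subunit of mitochondrial isocitrate dehydrogenase, stood at 6.81 in Su(H) and 10.08 in E(spl), and EGFR, at 7.62, was nearer to Su(H). Marf1 differed by -3.57 at 1 probe set, where E(spl) was the high array, and by 0.22 at the other.

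**Figure D3:**
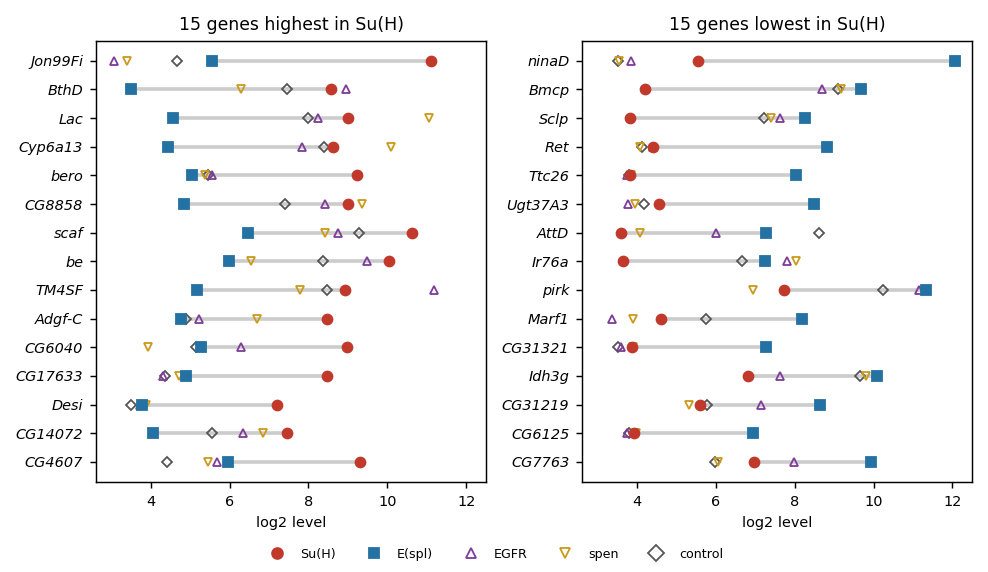
Log2 levels on all 5 arrays of the 15 named genes with the largest positive (left) and largest negative (right) difference, with a grey line joining Su(H) and E(spl). The Su(H) point stands alone at the right for Jon99Fi (11.11) and bero (9.23), and the E(spl) point at the left for BthD (3.50) and at the right for ninaD (12.06).

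Among the measured genes of Notch reception and processing, the share past 2-fold was near that of all genes (6.73%). Of 18 listed genes of the receptor, its ligands and their processing, 12 were named on the array, all of them passed the level rule, and 1 was past 2-fold. That gene was numb, whose product inhibits Notch, at 7.10 in Su(H) and 8.25 in E(spl), a difference of -1.15, with 6.16 to 7.84 elsewhere. Su(dx), a ubiquitin ligase gene that promotes Notch turnover, differed by -0.82. kuz, the metalloprotease that cleaves Notch at the cell surface, differed by 0.47, and neur, the ubiquitin ligase that activates ligands, by -0.35. Psn, the catalytic subunit of gamma-secretase, differed by 0.00, and fng, the glycosyltransferase that tunes ligand choice, by 0.09. The others were pen-2 (-0.25), Nedd4 (-0.25), dx (-0.23), lqf (0.18), Kul (-0.13) and O-fut1 (-0.12). The list median was -0.18, against -0.01 over all 7891 genes. N, Dl, Ser, Nct, aph-1 and mib1 are unnamed here.

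Of 10 genes for partners of Su(H) in the nucleus, 0 were past 2-fold (all genes, 6.73%), with a median of 0.08. With so few genes, a count of 0 is near the share of all genes. The coactivator gene mam differed by 0.19, the corepressor gene gro by -0.25 and H, which encodes Hairless, by -0.24. Smr, a corepressor gene, differed by 0.48, insv by 0.34 and the histone deacetylase gene HDAC1 by 0.34. The acetyltransferase gene nej differed by -0.23, the Mediator genes skd and kto by -0.20 and 0.09, and Bx42 by 0.08.

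Of 24 listed E(spl) complex genes and other Notch targets, 18 were named and 8 passed. Of these, 2 were higher in Su(H) (all genes, 3.98%). E(spl)m3-HLH, a repressor gene of the complex, stood at 8.92 in Su(H) and 7.76 in E(spl), with 9.27 in EGFR, 6.16 in spen and 7.24 in the control. It was 2.23-fold higher than in E(spl), and EGFR lay above both. E(spl)mbeta-HLH, another repressor gene of the complex, stood at 10.30 in Su(H) and 10.24 in E(spl), so these members of the complex differed unequally. Tom, a gene of the Bearded family, whose products restrain neur, stood at 6.13 in Su(H) and 4.71 in E(spl), 2.68-fold higher, and its relative Ocho differed by 0.80. The others were hry (-0.37), E(spl)malpha-BFM (-0.16), E(spl)m7-HLH (-0.13) and ct (0.07), and the list median was 0.07. The 10 that did not pass, BobA, Brd, E(spl)m2-BFM, E(spl)m4-BFM, E(spl)m5-HLH, E(spl)m6-BFM, E(spl)mdelta-HLH, Hey, dpn and vg, lay below 4.5 on both arrays.

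The genes next to the mutated loci were read as well, up to 10 on each side in the gene order of the Release 6 annotation. As a mean over its probe sets, none of those measured was past 2-fold (all genes, 6.73%). With so few genes, this is near the share of all genes. The largest mean difference beside the E(spl) complex was -0.97 (kumpel, with 1 of its 4 passing probe sets at -1.14), and beside Su(H) -0.42 (vig).

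Digestive enzyme genes of the gut, listed as markers of another tissue, were the group most on the Su(H) side. Of 44 listed, 34 were named and 25 passed. Of the 25, 14 were higher by 2-fold (all genes, 3.98%) and 0 lower (all genes, 2.75%). All 25 lay above 0 (all genes, 48.4%), with a median of 1.21. Since some passed only through their Su(H) level, all 34 named genes were also read. Of these 14 were higher, 0 lower, 31 lay above 0 and 2 below, with a median of 0.77. Over all 11982 named genes, 5954 lay above 0 and 5936 below. Of the 17 gut genes at or above 4.5 on both arrays, 10 were higher (all genes, 3.31%) and 0 lower (all genes, 2.39%). The summed log2 level of all 34 was 201.5 in Su(H) and 165.8 in E(spl), against 152.9 in EGFR, 156.3 in spen and 173.4 in the control.

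Beside Jon99Fi, the largest differences of the gut list lay in mag, a gut lipase gene, and in the Jonah genes Jon25Biii and Jon99Ci. mag stood at 9.47 in Su(H) and 6.15 in E(spl), 9.99-fold higher, with 5.27 in EGFR, 5.53 in spen and 7.67 in the control. Jon25Biii stood at 7.75 in Su(H) and 5.32 in E(spl), with 4.69 to 5.12 elsewhere. Jon99Ci stood at 6.48 in Su(H) and at 4.24 in E(spl), at least 4.43-fold higher, with 4.06 to 4.37 elsewhere. These 4 genes had their highest level of the 5 arrays in Su(H). This did not hold for every member, since Mal-A5, a maltase gene, stood at 7.98 in Su(H) and 6.67 in E(spl) but at 8.37 in the control and 8.50 in spen. The median level of all 34 named genes was 5.31 in Su(H) and 4.43 in E(spl), against 4.09 in EGFR, 4.24 in spen and 4.29 in the control.

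The Jonah family was singled out after its values were seen. Of 13 measured Jonah genes, 9 were higher by 2-fold (all genes, 3.98%) and all 13 lay above 0 (all genes, 48.4%). Their differences ran between 0.13 (Jon74E) and 5.55, with a median of 1.67. Jon65Aiv (9.09 in Su(H), 7.29 in E(spl)), Jon65Aiii (8.34 and 6.66) and Jon65Aii (7.31 and 5.54) lie next to each other, and in the first 2 of these the control, at 8.60 and 7.87, was nearer to Su(H). Jonah genes are close copies of each other, and their probe sets may share signal. Whether gut RNA was present in the hemocyte preparations, and in what amount, was not tested.

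Lamellocyte genes split into a group that was higher in Su(H) and a group that was not. All 17 named genes of 19 listed passed on both arrays. Of these, 7 were higher by 2-fold (all genes, 3.31%) and 0 lower (all genes, 2.39%). Their median was 0.27, and 14 of 17 lay above 0 (all passing genes, 48.4%). mdu stood at 10.43 in Su(H) and 7.93 in E(spl), 5.69-fold higher, with 6.56 to 8.76 elsewhere. atilla, the surface protein by which lamellocytes are recognised, stood at 10.34 in Su(H) and 8.23 in E(spl), 4.30-fold higher, with 8.58 in EGFR, 6.58 in spen and 6.26 in the control. ItgaPS4, an integrin alpha subunit, stood at 11.31 in Su(H) and 9.35 in E(spl), 3.89-fold higher, with 7.69 to 8.56 elsewhere. All 3 had their highest level in Su(H), with E(spl) or EGFR next. CG1208 (13.74 in Su(H), 11.80 in E(spl)), CG15347 (11.91 and 10.05) and the trehalose transporter gene Tret1-1 (11.29 and 9.72) followed the same order of Su(H) over E(spl).

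The remaining one of the 7, the tubulin gene betaTub60D, had another pattern. It stood at 13.44 in Su(H) and 11.57 in E(spl), 3.65-fold higher, but at 13.36 in EGFR, 13.49 in spen and 13.36 in the control, so that E(spl) was the low array. The 10 other lamellocyte genes differed by under 2-fold, with shot, a cytoskeletal linker, at 0.84 and the rest between -0.36 (PPO3) and 0.27 (rhea, the talin gene). Drip, an aquaporin gene, and ItgaPS5 differed by 0.20 and 0.15, although both stood above the spen and control levels on both arrays (Drip 8.27 in Su(H) and 8.07 in E(spl), against 5.88 and 5.43).

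Of 25 genes in the cytoskeleton and adhesion list, all at or above 4.5 on both arrays, 4 were higher (all genes, 3.31%) and 1 lower (all genes, 2.39%), with a median of 0.14. Itgbn, an integrin beta subunit, stood at 10.85 in Su(H) and 9.35 in E(spl), with 7.08 to 8.54 elsewhere. Pax, which encodes the focal adhesion protein paxillin, was the lower one, at 7.64 in Su(H) and 9.77 in E(spl), with 8.73 to 10.21 elsewhere. Of all 7 integrin subunit genes measured, a family chosen after its values were seen, 3 were higher (all genes, 3.31%). These were ItgaPS4, Itgbn and if, and scb had the lowest difference, -0.82. Of 5 beta tubulin genes, chosen in the same way, 3 were higher (all genes, 3.31%). These were betaTub60D, betaTub97EF and betaTub85D, of which betaTub85D belongs to the germ line and testis list. betaTub97EF stood at 11.56 in Su(H) and 9.98 in E(spl) with 11.20 to 11.56 elsewhere, the pattern of betaTub60D.

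Most plasmatocyte and crystal cell genes differed by under 2-fold, as did most of all genes. Of 20 plasmatocyte genes, 1 was higher (all genes, 3.98%), 1 lower (all genes, 2.75%) and 18 under 2-fold, with a median of 0.01. Of the 18 at or above 4.5 on both arrays, 0 were higher and 1 lower (all genes, 3.31% and 2.39%). Their median was -0.07. NimC2, a phagocytosis receptor gene, stood at 6.07 in Su(H) and 4.18 in E(spl), at least 3.35-fold higher, but at 10.48 in spen and 8.10 in the control. NimB5, which encodes a secreted Nimrod protein, stood at 9.65 in Su(H) and 10.92 in E(spl). Of 14 crystal cell genes, all at or above 4.5 on both arrays, 0 were higher and 1 lower (all genes, 3.31% and 2.39%). In this list 11 lay below 0 (all passing genes, 4053 of 7891), and the median was -0.19. The lower one was lz, the Runx factor that specifies crystal cells, at 5.72 in Su(H) and 6.90 in E(spl), with 7.43 in EGFR, 3.19 in spen and 3.89 in the control. The prophenoloxidase gene PPO1 stood at 14.53 in Su(H) and 14.54 in E(spl), and PPO2 differed by 0.09, so neither shared the difference of lz.

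**Figure D4:**
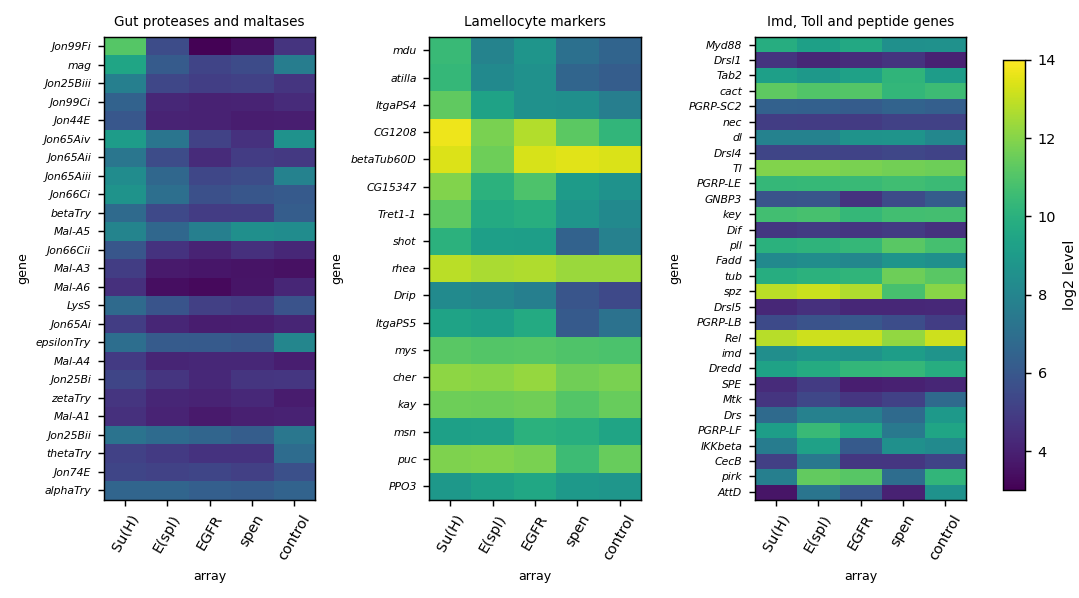
Log2 level (colour) of passing genes on each of the 5 arrays, sorted by Su(H) minus E(spl) with the highest difference on top, for gut enzymes (left), lamellocyte genes (middle) and genes of the Imd and Toll pathways with antimicrobial peptides (right). mdu and atilla are brightest in Su(H), Jon99Fi is bright in Su(H) alone, and AttD and pirk are darker in Su(H) than in E(spl).

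The immune peptide and pathway genes past 2-fold were all lower in Su(H). The Imd and Toll pathways sense bacteria and fungi and switch on antimicrobial peptide genes through NF-kappaB factors. Of 20 listed peptide genes, 12 were named and 7 passed. Of these 0 were higher (all genes, 3.98%) and 3 lower (all genes, 2.75%), with a median of -0.67. Over all 12 named genes the median was -0.08. Some members, such as AttD, passed only through their E(spl) level. Of the 4 at or above 4.5 on both arrays, 0 were higher and 2 lower (all genes, 3.31% and 2.39%). AttD, an attacin gene, stood at 3.61 in Su(H) and 7.26 in E(spl), at least 7.93-fold lower, with 6.01 in EGFR, 4.07 in spen and 8.62 in the control. CecB, a cecropin gene, stood at 5.07 in Su(H) and 7.40 in E(spl), 5.02-fold lower, with 4.76 to 5.22 elsewhere. Drs, which encodes the antifungal peptide drosomycin, stood at 6.80 in Su(H) and 7.83 in E(spl), with 6.78 to 8.91 elsewhere. Only in CecB was E(spl) the high array of all 5, and in AttD and Drs the control was higher still. Mtk (metchnikowin) differed by -0.67.

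Of 23 Toll and Imd pathway genes, 0 were higher (all genes, 3.98%) and 3 lower (all genes, 2.75%). In this list 18 lay below 0 (all genes, 4053 of 7891), with a median of -0.15. pirk, an inhibitor of the Imd receptor complex that the pathway itself induces, stood at 7.73 in Su(H) and 11.34 in E(spl), with 11.14 in EGFR, 6.94 in spen and 10.23 in the control. Su(H) and spen were thus low and the other 3 arrays high. The kinase gene IKKbeta stood at 7.63 in Su(H) and 9.30 in E(spl), with 6.12 to 8.53 elsewhere. PGRP-LF, a peptidoglycan recognition protein gene that restrains Imd signalling, stood at 9.16 in Su(H) and 10.43 in E(spl), with 7.44 to 9.48 elsewhere. Myd88, the Toll adaptor gene, had the highest difference, 0.59. The NF-kappaB factor gene Rel stood at 12.80 in Su(H) and 13.15 in E(spl).

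Of 14 phagocytosis and scavenger receptor genes, 2 were higher and 3 lower (all genes, 3.98% and 2.75%), with a median of 0.10. Of the 12 at or above 4.5 on both arrays, 1 was higher and 3 lower (all genes, 3.31% and 2.39%), with a median of -0.01. Beside ninaD, the lower ones were Sr-CIII at 8.20 in Su(H) and 9.96 in E(spl), with 5.48 to 7.13 elsewhere, and Sr-CIV at 10.06 in Su(H) and 11.62 in E(spl), with 6.96 to 9.31 elsewhere. Both therefore stood above EGFR, spen and control on both arrays and highest in E(spl). Sr-CI, another class C receptor gene, differed by 0.15.

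Detoxification genes differed in both directions. Of 34 passing genes, 7 were higher and 7 lower (all genes, 3.98% and 2.75%), with a median of -0.01. Of the 27 at or above 4.5 on both arrays, 3 were higher and 7 lower (all genes, 3.31% and 2.39%). Enzyme families were grouped after the values were seen. Of 11 passing Cyp6a genes of the cytochromes P450, 6 were higher in Su(H) and 1 was lower (all genes, 3.98% and 2.75%). All but 1 of the 6 passed only through their Su(H) level. Of the 5 Cyp6a genes at or above 4.5 on both arrays, 1 was higher and 1 lower (all genes, 3.31% and 2.39%). Cyp6a9 stood at 5.81 in Su(H) and 3.03 in E(spl), at least 2.78-fold higher. Cyp6a20 stood at 6.64 in Su(H) and 4.69 in E(spl), with 6.44 in EGFR. Both belong to a run of 4 neighbouring genes, with Cyp6a19 and Cyp6a21, all on the higher side. Cyp6a17 was on the other side, at 11.77 in Su(H) and 12.90 in E(spl). Over all 43 passing cytochrome P450 genes, 8 were higher and 5 lower (all genes, 3.98% and 2.75%). Of the 34 at or above 4.5 on both arrays, 3 were higher and 5 lower (all genes, 3.31% and 2.39%). Cyp6g1, known in adult flies for resistance to the insecticide DDT, was among the lower ones, at 5.20 in Su(H) and 7.78 in E(spl).

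Among the conjugating enzymes, 13 of 35 named UDP-glycosyltransferase genes passed, 0 of them higher and 4 lower (all genes, 2.75%). Of the 10 at or above 4.5 on both arrays, 3 were lower (all genes, 2.39%), and over all 35 named genes the median was -0.10. Of 26 passing glutathione S-transferase genes, all at or above 4.5 on both arrays, 2 were higher and 5 lower (all genes, 3.31% and 2.39%). Their median was -0.29, and that of all 34 named ones -0.13. GstD9 stood at 6.76 in Su(H) and 8.87 in E(spl), with 7.42 to 8.42 elsewhere.

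Muscle, fat body and salivary gland genes are markers of tissues other than blood. Of 23 passing muscle genes, 3 were higher (all genes, 3.98%) and 0 lower (all genes, 2.75%). Of the 23, 22 lay above 0 (all genes, 48.4%), with a median of 0.35. Over all 27 named muscle genes the median was 0.19, with 23 above 0 and 2 higher, and their summed log2 level was 184.3 in Su(H) and 174.3 in E(spl). Zasp52, a protein of the sarcomere's Z-disc also found in other cells, stood at 12.51 in Su(H) and 10.18 in E(spl), 5.02-fold higher, with 11.92 to 12.30 elsewhere, so that E(spl) was the low array. Zasp66 stood at 8.69 in Su(H) and 7.12 in E(spl), with 5.48 to 6.34 elsewhere. The muscle genes with the largest excess over the other arrays differed little, with Mlc1 (myosin light chain) at 10.20 in Su(H) and 9.98 in E(spl), Tm2 (tropomyosin) at 10.52 and 10.10, and up (troponin T) at 9.22 and 9.12.

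Of 17 passing fat body genes, 3 were higher and 0 lower (all genes, 3.98% and 2.75%). Their median was 0.30, and that of all 20 named ones 0.14. The higher ones included the fatty acid synthase gene FASN1 at 12.41 in Su(H) and 11.29 in E(spl). Of 9 passing salivary gland genes, 1 was higher and 1 lower (all genes, 3.98% and 2.75%). Their median was 0.50, and that of all 17 named ones 0.07. The glue protein gene Sgs3 stood at 8.36 in Su(H) and 5.16 in E(spl), with 12.13 in spen, 8.85 in EGFR and 7.98 in the control, so that E(spl) was again the low array. Of 25 germ line and testis genes, 2 were higher and 1 lower (all genes, 3.98% and 2.75%), with a median of 0.29. Of the 25, 20 lay above 0 (all genes, 48.4%). The higher ones included the tubulin gene betaTub85D, at 9.20 in Su(H) and 8.03 in E(spl), with 8.57 to 11.48 elsewhere. The one lower was bam, a germ cell differentiation factor gene, at 6.36 in Su(H) and 7.70 in E(spl). The part of RNA of other tissues in these differences was not tested.

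**Figure D5:**
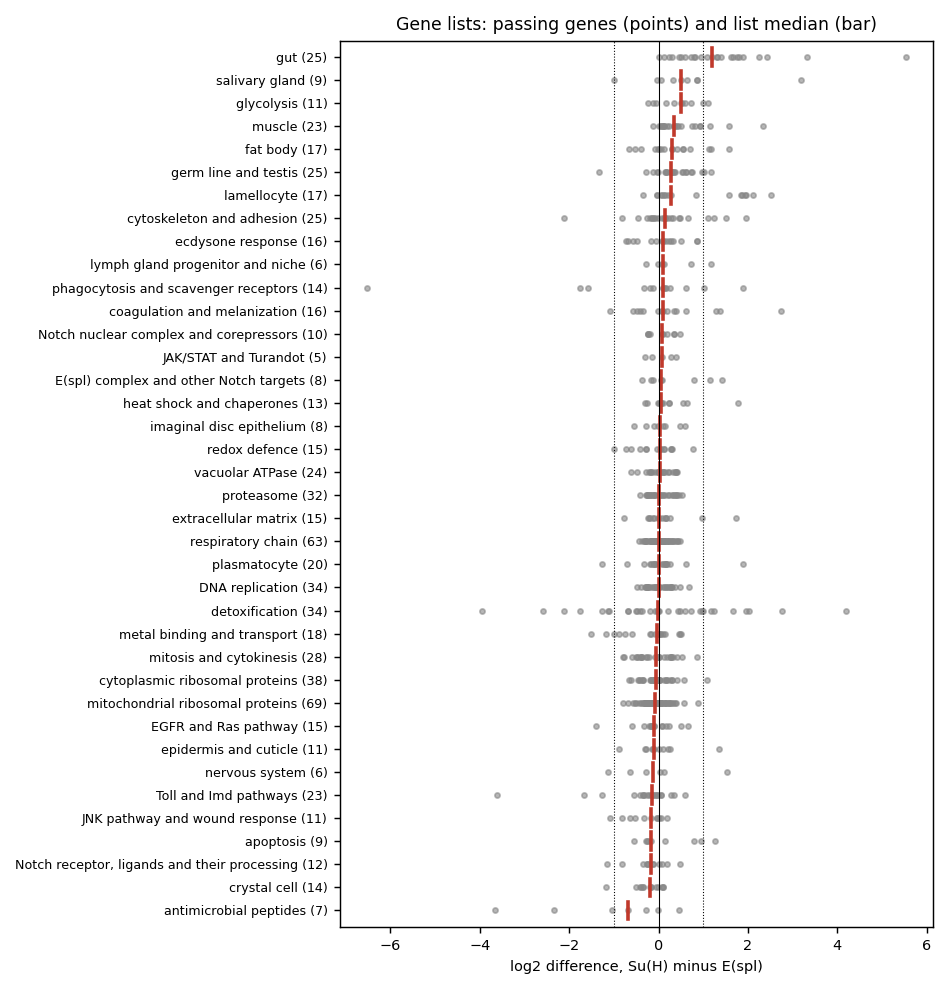
Log2 difference, Su(H) minus E(spl), of each passing gene (points) in each gene list with 5 or more such genes, with the list median as a red bar and the number of genes in brackets. The gut list has the highest median, 1.21, and the antimicrobial peptide list the lowest, -0.67, while the proteasome and respiratory chain lists stay within the dotted lines at 2-fold.

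Among the other lists, glycolysis had a median of 0.49, with 1 of 11 genes higher by 2-fold (all genes, 3.98%). That gene was Pfk, phosphofructokinase, at 8.24 in Su(H) and 7.14 in E(spl), and Tpi, triosephosphate isomerase, followed with 11.07 in Su(H) and 10.07 in E(spl), while Hex-A differed by -0.24. In the coagulation and melanization list, 3 of 16 genes were higher and 1 lower (all genes, 3.98% and 2.75%). Tdc1, a tyrosine decarboxylase gene, stood at 10.02 in Su(H) and 7.28 in E(spl), with 5.17 to 8.13 elsewhere. The clot protein gene fon stood at 10.09 in Su(H) and 8.80 in E(spl), and Sp7, a protease gene of the melanization cascade, at 6.18 and 4.80. Ddc, dopa decarboxylase, stood at 5.03 in Su(H) and 6.11 in E(spl). Timp, an inhibitor of matrix metalloproteases, was the 1 gene of 15 in the extracellular matrix list past 2-fold (all genes, 6.73%). Its probe sets differed by 1.79 and 1.65. The EGF receptor antagonist gene aos stood at 4.47 in Su(H) and 5.88 in E(spl). It was the 1 gene of 15 in the EGFR and Ras pathway list past 2-fold. moody, a receptor gene of the blood-brain barrier, stood at 10.42 in Su(H) and 8.88 in E(spl). Of 6 passing nervous system genes, 1 was higher and 1 lower (all genes, 3.98% and 2.75%), with a median of -0.12. The chaperone cofactor gene stv stood at 8.29 in Su(H) and 6.51 in E(spl), the 1 of 13 heat shock and chaperone genes past 2-fold.

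The large housekeeping lists held no gene past 2-fold (all genes, 6.73%). This was so for 34 DNA replication genes, 28 genes of mitosis and cytokinesis, 63 of the respiratory chain, 69 of the mitochondrial ribosome, 32 of the proteasome and 24 of the vacuolar ATPase. Their medians lay between -0.08 and 0.03. Orc1, an origin recognition gene, had the largest difference in DNA replication, 0.68, and Bub1, a spindle checkpoint kinase gene, that in mitosis, 0.86. Of 38 cytoplasmic ribosomal protein genes, 1 was higher, RpL22-like, at 7.39 in Su(H) and 6.31 in E(spl). Taking the 39 lists as 1 set, they held 81 of the 531 genes past 2-fold (15.3%) and 9.07% of all genes that passed. The lists were chosen with earlier results of these data known, so these shares do not measure an enrichment.

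By chromosome arm, the share of probe sets past 2-fold was 4.93% on X, 6.65% on 2L, 6.77% on 3L, 7.08% on 3R and 8.33% on 2R. On the small chromosome 4 it was 14.6% of 48 probe sets. Of the 531 genes past 2-fold, 84 lay beside another annotated gene that was past 2-fold in the same direction, in 45 pairs, 33 higher and 12 lower. No count over all genes stands beside these numbers, so whether differing genes cluster was not tested. Examples chosen after their values were seen were the lipid synthesis gene Dgat2 and its neighbour CG1941 (differences of 2.65 and 1.91), Axs and Septin4 (2.23 and 1.98), and the glutathione S-transferase genes GstE1 and GstE2 (-1.26 and -1.61).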

How the data were processed

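Hemocyte RNA was measured on single-dye Affymetrix arrays, 1 array for each of 5 stocks. The authors deposited 1 table of log2 levels per probe set. The submitters' processing notes name RMA and GCOS, and their role, version and settings are not given in the sources used here. RMA, where used, equalises the arrays, so an overall shift between them would not show.

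The log2 level on the E(spl) array was subtracted from that on the Su(H) array. No further normalization was applied. Gene names came from the platform annotation, in which 13647 probe sets have 1 gene, 402 several and 4720 none, and 0 symbols needed an update from the Release 6 RefSeq gene table. Probe sets with several genes or none were left without a gene name. Calculations used Python 3.11.15, pandas 2.3.3, numpy 2.4.6 and statsmodels 0.14.6 (lowess), and the counting was tested on simulated data. The precision is limited by the single array per stock. No sequence is printed.

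Named genes were the 15 with the largest difference in each direction, all measured genes of the Notch lists, and up to 4 genes of each other list with the largest differences. Genes named beyond this, and the gene families, were chosen after their values were seen. The members and the 39 lists were chosen with earlier results of these data known. A level below the highest Bacillus control of its array gives a bound, written as at least. A difference in a list is the gene's mean over its passing probe sets. Alternatives were the level rule, the fold, median centring, renewed quantile normalization, lowess, the probe set per gene and, added later, plain probe sets alone.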

Additional observations from a re-analysis of the deposited data

How the results depend on the processing

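With 386 probe sets higher and 278 lower in Su(H), a log2 difference of 1.5 in place of 1 left 202 higher and 117 lower (63.3% higher), as a stricter threshold must. The counts of higher probe sets under the 6 other planned settings lay between 301 and 395, and those of lower ones between 223 and 287. Plain probe sets alone, a setting chosen after seeing the data, gave 273 higher and 202 lower of 7200. Renewed quantile normalization, lowess and centring moved the median of all differences by at most 0.02 in size. The differences of the 30 genes with the largest values moved by at most 0.15 under these 3 scalings, with 0 of 90 reversed. The list medians moved by at most 0.15 under the same scalings. With no level rule, 21 of 39 list medians moved by over 1.5 times, 5 of them with a size of at least 0.25: gut 0.77, salivary gland 0.07, muscle 0.19, fat body 0.14 and antimicrobial peptides -0.08. Of the peptide genes, 2 rather than 3 were lower after quantile normalization or lowess. In 7 lists with a median of at most 0.21 in size, 10 of 195 recomputed medians changed sign. No array could be left out, and the difference has no replicate check. No paired analysis was possible because each stock had 1 array. Levels near the Bacillus controls limit the size of differences among dim genes.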
